A study of Arabidopsis thaliana with 48 samples.

Results

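APETALA1 (AP1, AT1G69120), CAULIFLOWER (CAL, AT1G26310) and FRUITFULL (FUL, AT5G60910) are 3 related MADS-box genes of Arabidopsis thaliana. They were taken by these identifiers, without regard to case, from a table of 23069 genes, and all 3 were among the 19747 genes with enough counts to be tested. AGL79, the other gene of their clade, has no row among the genes analysed here. The samples were inflorescences of a Col-0 line with mutated ap1 and cal genes that carries pAP1:AP1-GR, the AP1 protein fused to the hormone-binding domain of a glucocorticoid receptor and driven by an AP1 promoter. They were collected on the day of induction (day 0) and on days 1, 2, 3, 4 and 5 after the first drench with 2 µM dexamethasone, which was repeated each day. Every group carries the transgene and both mutant genes, there are 4 biological replicates per day (24 samples), and the counts of a sample are the sum of its 2 sequencing batches. The sources used here name no mutant alleles, sampling hour or un-induced time course, so time after induction and age of the tissue cannot be told apart.

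AP1 encodes a transcription factor that makes a young lateral meristem a flower and later specifies sepals and petals. CAL is its closest relative and backs it up in floral meristem identity, so that plants lacking both make cauliflower-like heads of repeated meristems in place of flowers. FUL also promotes floral meristem identity, acts in the inflorescence meristem and in flowering time, and later patterns the fruit wall, and AP1 is known to keep FUL out of young wild-type flowers. In the line studied, dexamethasone lets the fusion protein enter the nucleus, which starts flower formation across the head. Reads counted for AP1 may come from the AP1-GR transgene, from the mutated endogenous gene or from both, and CAL reads come from a gene that is mutated in every sample.

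The 3 genes moved in different ways over the 5 days. AP1 was higher than on day 0 on every later day, and its mean was highest on day 4. CAL was lower from day 2 on and fell to 0.33 times its day 0 level on day 5, while FUL did not pass the test on days 1 to 3 and was lower on days 4 and 5. AP1, CAL and FUL changed over the 6 days at adjusted p = 1.37e-07, 1.30e-09 and 0.000120 (edgeR quasi-likelihood F-test, adjusted over all tested genes). By the same test 48.9% of all tested genes changed over the 6 days.

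The 24 samples held 26.6 to 28.0 M counts each. At this depth AP1 had 4049 to 9124 counts per sample, FUL had 2641 to 4484 and CAL had 146 to 569, so counting error alone is at most 1.57% for AP1 and 1.95% for FUL but reaches 8.28% for CAL. The level of a gene in batch 2 over that in batch 1 of the same sample lay between 0.965 and 1.06 for AP1, between 0.954 and 1.06 for FUL and between 0.744 and 1.45 for CAL. Day 5 replicate 1 and day 3 replicate 4 lay apart on the third principal component of all tested genes (8.25% of the variance), at 51.6 and -43.9, with the other samples between -24.3 and 16.1. Summed levels of 5 anther and tapetum markers were 27.1 CPM (counts scaled to an effective library size of 1 M) in day 3 replicate 4, against 0.106 to 1.66 CPM in the other samples of that day. The changes of the 3 genes that involve day 3 or day 5 are given with these samples and then without them. Sums of these markers above 10 CPM also occurred in 1 sample each of day 1 (11.4 CPM), day 2 (10.2 CPM) and day 5 (15.5 CPM).

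All 3 genes lie on the minus strand with 8 exons in the longest model and overlap no other annotated gene (RefSeq annotation, TAIR10.1 assembly). AP1 spans chr1:25982294-25986349, CAL chr1:9099994-9103644 and FUL, which RefSeq lists as AGL8, chr5:24502434-24506269. Their proteins begin with the MADS domain, the DNA-binding part of the family, and the first 180 coding bases show how close the 3 genes are in this stretch. They are printed below from the RefSeq reference with capitals at the positions that are not the same in all 3, which is the reference sequence and not that of the mutant alleles.
AP1: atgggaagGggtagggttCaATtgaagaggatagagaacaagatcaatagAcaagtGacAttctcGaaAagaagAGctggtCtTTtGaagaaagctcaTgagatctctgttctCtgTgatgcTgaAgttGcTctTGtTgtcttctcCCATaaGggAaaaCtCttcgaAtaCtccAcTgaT
CAL: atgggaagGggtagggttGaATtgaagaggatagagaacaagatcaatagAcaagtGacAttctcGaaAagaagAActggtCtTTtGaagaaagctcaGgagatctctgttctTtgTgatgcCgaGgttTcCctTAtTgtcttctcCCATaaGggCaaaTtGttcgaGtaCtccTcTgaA
FUL: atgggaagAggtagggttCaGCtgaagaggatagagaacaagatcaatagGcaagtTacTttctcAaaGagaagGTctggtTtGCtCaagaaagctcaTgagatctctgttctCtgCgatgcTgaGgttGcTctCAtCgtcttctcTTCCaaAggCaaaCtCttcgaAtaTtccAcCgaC
In this stretch AP1 and CAL share 165 of 180 bases (91.7%), AP1 and FUL share 152 (84.4%), and CAL and FUL share 145 (80.6%). Over the aligned coding sequence the identities are 84.3% for AP1 and CAL, 68.5% for AP1 and FUL, and 66.1% for CAL and FUL. In the reference, stretches of 31 bases found in another gene make up a short part of each transcript. The longest run that AP1 and CAL share is 56 bases. Read length, the mutant alleles and the transgene were not considered, and wrong assignment of reads was not tested. Of the distinct stretches of 31 bases in each reference transcript, 26 of 1270 for AP1 (2.05%), 27 of 1208 for CAL (2.24%) and 5 of 1257 for FUL (0.398%) occur in any other gene, and AP1 and CAL share 26 of them.

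The start regions were compared because CAL and FUL are both lower in the later samples while AP1 is higher. The 250 bases before each annotated gene start are printed below, on the strand of the gene, and the capitals mark matches to CCANTG on either strand, the core letters bound by LEAFY (LFY), a direct activator of AP1 and CAL.
AP1 (TAIR10.1, chr1:25986350-25986599, minus strand): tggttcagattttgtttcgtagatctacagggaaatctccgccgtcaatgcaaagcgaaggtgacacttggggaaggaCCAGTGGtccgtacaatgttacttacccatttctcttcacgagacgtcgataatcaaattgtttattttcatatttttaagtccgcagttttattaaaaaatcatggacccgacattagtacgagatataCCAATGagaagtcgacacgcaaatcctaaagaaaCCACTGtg
CAL (TAIR10.1, chr1:9103645-9103894, minus strand): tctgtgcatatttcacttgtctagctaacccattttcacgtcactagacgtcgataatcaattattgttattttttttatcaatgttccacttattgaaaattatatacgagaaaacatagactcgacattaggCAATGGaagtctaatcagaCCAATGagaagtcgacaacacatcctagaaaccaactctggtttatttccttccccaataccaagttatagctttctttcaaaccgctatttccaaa
FUL (TAIR10.1, chr5:24506270-24506519, minus strand): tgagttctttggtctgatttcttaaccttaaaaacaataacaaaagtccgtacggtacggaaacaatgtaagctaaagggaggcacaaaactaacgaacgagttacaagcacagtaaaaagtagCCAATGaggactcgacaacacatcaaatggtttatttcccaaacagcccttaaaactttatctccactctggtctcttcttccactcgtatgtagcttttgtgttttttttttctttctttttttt
Matches were counted in windows from 250 bases before to 50 bases after the start, for 27443 nuclear protein-coding genes, on both strands. CCANTG occurs in 25.7% of all these windows. AP1 has 4 matches, which begin 172, 171, 42 and 8 bases before its start and of which the first pair overlaps, CAL has 2 (116 and 97 bases before) and FUL has 1 (126 bases before). GTAC, the core bound by SPL proteins, occurs in 39% of windows, at 2 places each in AP1 and FUL and at none in CAL. The CArG box, the type of site that MADS-domain proteins bind, was searched only as CCWWWWWWGG, where W is A or T (3.05% of windows). Neither these letters nor CACGTG (7.68% of windows) were found in these 3 windows. Sites that depart from these letters were not searched.

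Each of the 3 windows holds CCAATG once, and the letters that follow are alike. The 24 bases from that match are printed with capitals where the 3 genes are not all the same.
AP1 (from 42 bases before the start): ccaatgagAaGtcgacaCGCAaAT
CAL (from 97 bases before the start): ccaatgagAaGtcgacaACACaTC
FUL (from 126 bases before the start): ccaatgagGaCtcgacaACACaTC
CAL and FUL share 22 of these 24 bases, AP1 and CAL share 18, AP1 and FUL share 16, and 16 are the same in all 3. The pattern CCAATGAGNANTCGACA, written down after these windows had been read, matches 3 of the 27443 windows (0.0109%) on either strand, which are those of AP1, CAL and FUL, whereas CCAATG alone matches 3085 (11.2%). Binding to this stretch was not measured here, and a match of letters is not a site.

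**Figure D1:**
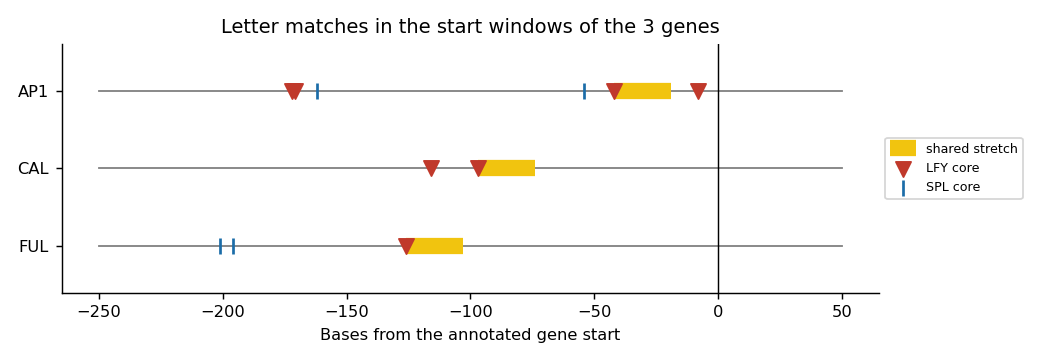
Positions of letter matches in the start windows of AP1, CAL and FUL, by bases from the annotated gene start (x axis, 0 is the start). Triangles are matches to the LFY core, blue ticks are matches to the SPL core, and yellow bars are the 24-base stretch, which begins 42, 97 and 126 bases before the starts of AP1, CAL and FUL.

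AP1 was the gene that rose. Its level was 182, 197, 156 and 199 CPM in the 4 replicates of day 0, 241, 246, 261 and 256 CPM on day 1, and 297, 296, 264 and 307 CPM on day 2. It was 319, 315, 305 and 298 CPM on day 3, 339, 328, 310 and 312 CPM on day 4, and 257, 325, 324 and 279 CPM on day 5. Every sample of days 1 to 5 lay above every sample of day 0. The means were 183.5 ± 19.6, 251 ± 9.43, 291 ± 18.6, 309 ± 9.66, 322 ± 13.8 and 296 ± 33.9 CPM on days 0 to 5 (SD, n = 4 each).

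The first day brought 48.7% of the gain in mean AP1 level seen by day 4, day 2 stood at 77.5% of it and day 3 at 90.7%. On day 1 AP1 was 1.37-fold higher than on day 0, a log2 fold change of 0.45 ± 0.08 (SE; adjusted p = 0.000738, edgeR), and was 1 of the 10.1% of tested genes called on that day. A call here means adjusted p under 0.05. The changes against day 0 were 0.66 on day 2 (adjusted p = 1.73e-06, edgeR), 0.75 on day 3 (1.73e-07) and 0.81 on day 4 (3.25e-08), and 23.7%, 29.1% and 35.3% of all tested genes were called in these comparisons. On day 5 AP1 was 1.61-fold higher than on day 0 (0.69 ± 0.08; adjusted p = 1.80e-07, edgeR), where 47.2% of tested genes were called. Without day 5 replicate 1, which had the lowest AP1 level of its day, this change was 0.75 (adjusted p = 3.70e-08, edgeR).

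The later daily steps of AP1 were small. AP1 changed by a log2 fold change of 0.21 on day 2 against day 1 (adjusted p = 0.195, edgeR), 0.09 on day 3 against day 2 (0.794), 0.06 on day 4 against day 3 (0.831) and -0.12 on day 5 against day 4 (0.316). None of these passed the test, although all samples of day 2 lay above those of day 1. In the order of mean levels (days 4, 3, 5, 2, 1 and 0), days 2 and 1 and days 1 and 0 were the only neighbours whose samples did not overlap. Day 5 stood 1.18-fold above day 1 (0.24 ± 0.08; adjusted p = 0.0158, edgeR), with samples that overlap. This call was lost without day 5 replicate 2 (0.19; adjusted p = 0.0672) or replicate 3 (0.19; 0.0642), without replicate 2 of every day (0.18; 0.166), and when counts were scaled to library totals (0.15; 0.114), a scaling that moved the median of all tested genes to -0.10 in this comparison.

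CAL was lower than on day 0 from day 2 on. It had 20.1, 16.4, 16.4 and 21.0 CPM in the samples of day 0, 17.1, 17.9, 15.3 and 14.9 CPM on day 1, and 12.5, 14.2, 13.1 and 13.1 CPM on day 2. It had 12.6, 12.2, 12.8 and 8.74 CPM on day 3, 8.50, 8.74, 9.06 and 9.95 CPM on day 4, and 5.45, 7.03, 6.04 and 5.83 CPM on day 5. The samples of day 2 lay below all of day 1, and those of day 5 below all of day 4, while the other neighbouring days overlapped. Mean levels were 18.5 ± 2.42, 16.3 ± 1.42, 13.2 ± 0.705, 11.6 ± 1.91, 9.06 ± 0.637 and 6.09 ± 0.677 CPM on days 0 to 5 (SD, n = 4 each).

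The fall of CAL was spread over the days: day 1 stood at 17.5% of the loss seen by day 5, day 2 at 42.4%, day 3 at 55.6% and day 4 at 76.0%. On day 1 the log2 fold change against day 0 was -0.18 (95% interval -0.41 to 0.04; adjusted p = 0.304, edgeR), which did not pass the test. CAL fell by 0.48 on day 2 (adjusted p = 0.00228, edgeR), by 0.67 on day 3 (6.10e-05), by 1.03 on day 4 (2.39e-07) and by 1.60 ± 0.12 on day 5 (2.26e-10), all on the log2 scale against day 0. Of the steps between neighbouring days, the last passed the test: CAL fell by 0.57 ± 0.12 on day 5 against day 4 (adjusted p = 0.00331, edgeR), where 12.2% of tested genes (2403) were called. Over all genes, 948 were called without day 4 replicate 1 and 1524 without day 4 replicate 3. In the batch 1 counts alone, where CAL has its fewest reads, this step was -0.51 (adjusted p = 0.130) and day 2 against day 0 was -0.38 (0.114).

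Whether the step of CAL on day 4 against day 3 passed the test turned on 1 library, while its direction did not. Day 3 replicate 4, the sample with the highest sum of anther and tapetum markers, had the lowest CAL level of its day. With it the step was -0.35 (adjusted p = 0.142, edgeR), and without it CAL was called lower (-0.47; adjusted p = 0.0153). The steps of day 2 against day 1 (-0.30; adjusted p = 0.2003) and day 3 against day 2 (-0.19; 0.623) did not pass. The shares of all tested genes called in the steps of day 2 against 1, day 3 against 2 and day 4 against 3 were 1.9%, 0.871% and 1.45%.

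FUL was the last of the 3 to pass the test. Its level was 158, 167, 149 and 146 CPM in the samples of day 0, 149, 160, 153 and 147 CPM on day 1, and 155, 145, 154 and 133 CPM on day 2. It was 144, 149, 153 and 121 CPM on day 3, 128, 119, 139 and 133 CPM on day 4, and 98.5, 114, 123 and 104 CPM on day 5. Neighbouring days overlapped throughout, and all samples of days 4 and 5 lay below all samples of day 0. The means were 155 ± 9.28, 152 ± 5.91, 147 ± 10.2, 142 ± 14.4, 129.7 ± 8.53 and 109.9 ± 11.1 CPM on days 0 to 5 (SD, n = 4 each).

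On day 1, when AP1 was already higher, the log2 fold change of FUL against day 0 was -0.03 (95% interval -0.19 to 0.13; adjusted p = 0.867, edgeR). With counts scaled to library totals its sign turned (0.042; adjusted p = 0.750). FUL did not pass the test on day 2 (-0.08; adjusted p = 0.494, edgeR) or day 3 (-0.13; 0.231), and fell by 0.26 ± 0.08 on day 4 (0.0124) and by 0.50 ± 0.08 on day 5 (1.75e-05), log2 against day 0. The day 4 call was lost without day 0 replicate 2 (-0.22; adjusted p = 0.0507) or day 4 replicate 2 (-0.22; 0.0511), and without replicate 1 (-0.24; 0.0622) or replicate 2 (-0.18; 0.186) of every day. Day 5 against day 4 gave -0.24 (adjusted p = 0.0465, edgeR), a call that was lost in 15 of 24 fits that each left out 1 library, among them the fit without day 5 replicate 1 (-0.19; 0.116). The steps of day 2 against 1 (-0.05; adjusted p = 0.843), day 3 against 2 (-0.05; 0.910) and day 4 against 3 (-0.13; 0.549) did not pass.

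**Figure D2:**
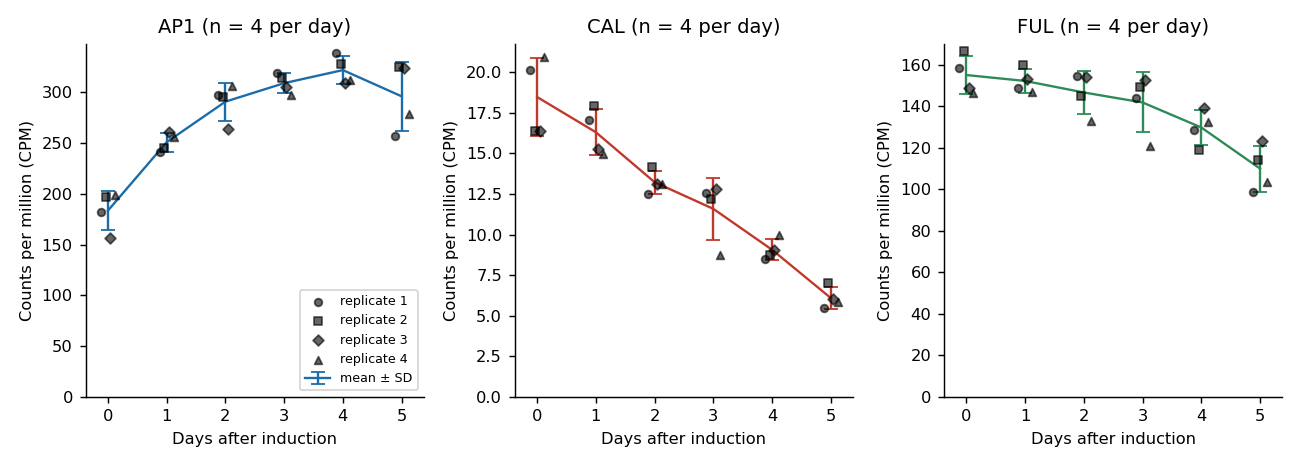
Levels of AP1, CAL and FUL in CPM (y axes, each starting at 0) against days after induction (x axes), with 1 point per sample, and lines and bars for the mean ± SD of 4 samples. The AP1 mean lies at 322 CPM on day 4, against 183.5 CPM on day 0, the CAL mean at 6.09 CPM on day 5, against 18.5 CPM on day 0, and the FUL mean at 109.9 CPM on day 5, against 155 CPM on day 0.

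With day 1 as the baseline, which leaves out the day 0 samples, CAL fell by 1.42 on the log2 scale by day 5 (adjusted p = 2.09e-09, edgeR) and FUL by 0.47 (4.52e-05). In that comparison 40.7% of tested genes were called. On day 5 the samples of AP1 overlapped those of day 1, whereas those of CAL and of FUL lay below them. Levels here are shares of bulk RNA, so fewer cells of a type and less RNA per cell cannot be told apart.

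Leaving out day 3 replicate 4 or day 5 replicate 1 changed the call of CAL on day 4 against day 3 and of FUL on day 5 against day 4, as given above, and no other call of the 3 genes in comparisons with their own day. Without day 3 replicate 4 the log2 fold changes of day 3 against day 0 were 0.77 for AP1, -0.56 for CAL and -0.059 for FUL. In the steps around that day, day 3 against day 2 then gave 0.11 for AP1, -0.078 for CAL and 0.021 for FUL, whose sign turned, and day 4 against day 3 gave 0.041 for AP1 and -0.20 for FUL. None of these 5 steps passed the test with or without the library. Without day 5 replicate 1, day 5 against day 0 gave -1.55 for CAL and -0.45 for FUL. Day 5 against day 4 gave -0.059 for AP1 (adjusted p = 0.638, edgeR) and -0.52 for CAL (0.00876), and day 5 against day 1 gave 0.30 for AP1, -1.37 for CAL and -0.42 for FUL.

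**Figure D3:**
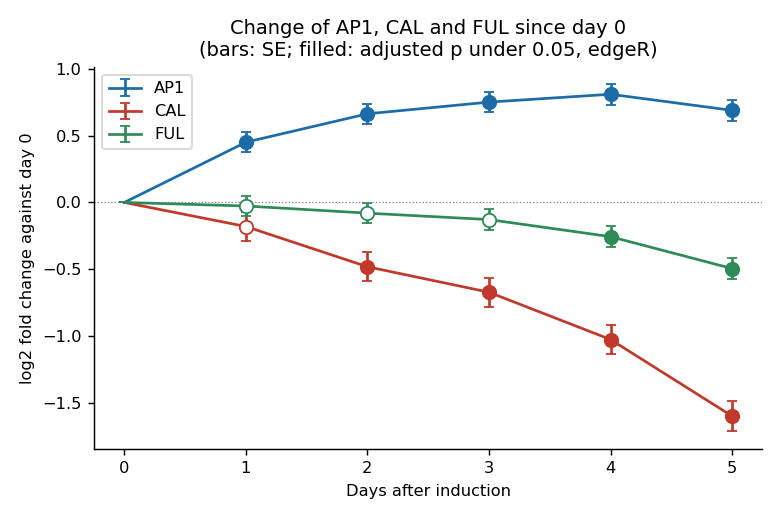
Log2 fold change against day 0 (y axis) of AP1, CAL and FUL on days 1 to 5 after induction (x axis), from edgeR. Bars are SE, filled points have adjusted p under 0.05, and all days share the day 0 samples. AP1 is filled on every day, CAL from day 2 (-0.48) and FUL from day 4 (-0.26).

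The balance among the 3 transcripts was followed within each sample, per kb of reference transcript length, because this ratio needs no scaling between samples. AP1 was 9.53 ± 1.28 times the level of CAL on day 0, and 14.8 ± 1.77, 21.0 ± 1.73, 25.9 ± 4.37, 34.0 ± 3.56 and 46.2 ± 3.17 times on days 1 to 5 (SD, n = 4 each). FUL was 0.859 ± 0.090 times the level of AP1 on day 0, then 0.613 ± 0.035, 0.512 ± 0.063, 0.463 ± 0.041, 0.408 ± 0.041 and 0.376 ± 0.015 times on days 1 to 5. FUL was 8.18 ± 1.34 times the level of CAL on day 0, then 9.002 ± 0.621, 10.7 ± 1.08, 11.9 ± 0.98, 13.8 ± 0.99 and 17.4 ± 1.66 times. So AP1 gained on both relatives, and FUL on CAL.

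Each of the 27 ratio comparisons was tested by a two-sided exact permutation test of 4 against 4 samples. The smallest possible p is 0.0286, which becomes 0.0429 after adjustment over the 27. That adjusted value depends on how many of the 27 tests reach the smallest p, and rises when fewer do. AP1 over CAL was higher than on day 0 on each of days 1 to 5 at that smallest p, by 0.63 on the log2 scale on day 1 and by 2.29 on day 5. It also rose at every daily step except day 4 against day 3 (0.40; exact permutation p = 0.0571, adjusted 0.0735). FUL over AP1 fell by 0.48 on day 1 and by 1.19 on day 5 against day 0, at the smallest p on every day, and no later daily step passed the exact test. FUL over CAL was not shown to differ on day 1 (0.15; exact permutation p = 0.371) or on day 2 (0.39; adjusted p 0.0735 in the exact test), and was higher on day 3 by 0.55, on day 4 by 0.76 and on day 5 by 1.10 against day 0. Its steps of day 2 against day 1 (0.24) and day 5 against day 4 (0.33) passed at the smallest p, and the first of them did not pass in either batch alone (0.31 in batch 1 and 0.20 in batch 2).

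**Figure D4:**
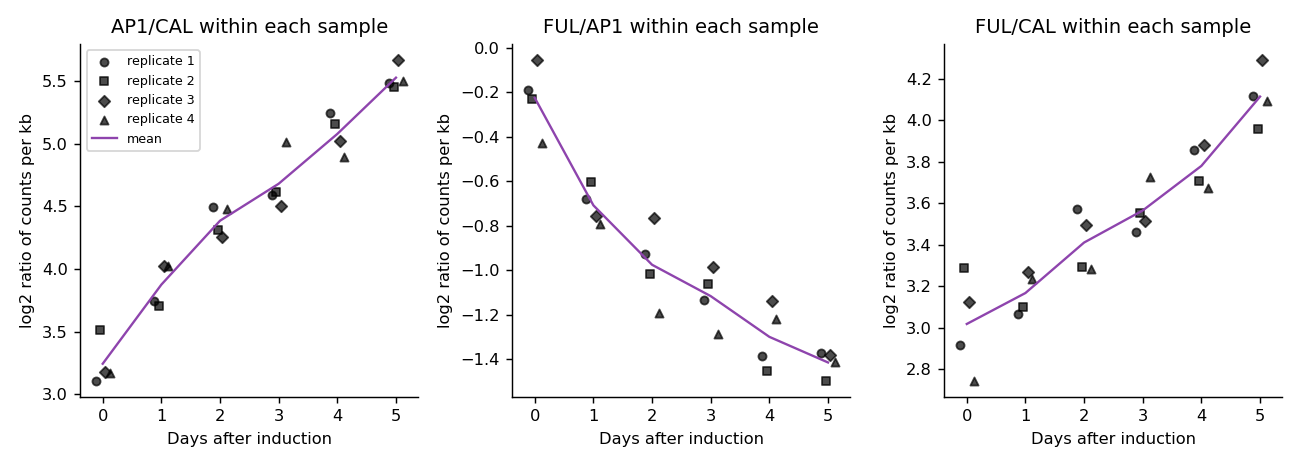
Log2 ratio of counts per kb of AP1 over CAL, FUL over AP1 and FUL over CAL within each sample (y axes, not starting at 0) against days after induction (x axes), with 1 point per sample and a line through the means of 4 samples. Mean log2 AP1 over CAL is 5.53 on day 5, against 3.24 on day 0, FUL over AP1 is -1.41 on day 5, against -0.22 on day 0, and FUL over CAL is 4.12 on day 5, against 3.02 on day 0.

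Per kb of transcript, AP1 was the most abundant of the 3 and CAL the least on every day. AP1 stood at 141 CPM per kb on day 0, 248 on day 4 and 228 on day 5, FUL at 85.4 on day 5, against 120 on day 0, and CAL at 4.92 on day 5, against 14.9 on day 0. AP1 made up 51.0% of the summed level of the 3 genes on day 0, and 59.5%, 64.2%, 66.6%, 69.6% and 71.6% on days 1 to 5. The share of FUL was 26.9% on day 5, against 43.6% on day 0, and that of CAL was 1.55% on day 5, against 5.40% on day 0. Among other MADS-box genes on the same scale, SOC1, a flowering activator, had 54.4 CPM per kb on day 5, against 129 on day 0, a day 0 level between those of AP1 and FUL, while AP3 had 148 on day 5, against 7.20 on day 0.

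Genes that are known to act on the 3 members, or to be acted on by them, were read from lists put together from general knowledge of flowering. The lists were chosen with earlier results of these data known. Several genes stand on more than 1 list, so the counts of different lists are not separate observations. The first holds 15 activators of AP1, CAL or FUL, of which 14 could be tested and TSF had too few counts. On day 1 against day 0, 1 of the 14 was higher and 5 were lower (median log2 fold change -0.37), with 4.21% of all tested genes higher, 5.85% lower and a median of -0.0018 for all tested genes. The number lower was 3 without day 0 replicate 2 or among genes with a mean of at least 10 CPM, and 2 without replicate 2, or without replicate 3, of every day. The split of calls over all genes on that day depends on the scaling, since 64.9% of called genes were higher with library totals, against 41.8% here. On day 5 against day 0, 4 of 14 were higher and 8 lower (median -0.41), with 24.3% of all tested genes higher and 22.9% lower, and 2 were higher without replicate 3 of every day.

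LFY was the activator that rose on day 1. LFY averaged 98.1 ± 9.11 CPM on day 1, against 48.5 ± 3.42 CPM on day 0 (log2 fold change 1.02 ± 0.10; adjusted p = 4.92e-07, edgeR). It was highest on day 2 (114 ± 6.79 CPM) and had 62.0 ± 9.72 CPM on day 5, a change of 0.35 against day 0 (adjusted p = 0.00414) that did not pass without replicate 3 of every day (0.21; 0.0740). FD, the bZIP partner of the flowering signal FT at the AP1 promoter, averaged 84.9 ± 5.66 CPM on day 1 and 37.0 ± 2.37 CPM on day 5, against 154 ± 8.95 CPM on day 0 (-0.86 and -2.06; adjusted p = 1.71e-06 and 1.55e-13, edgeR). LMI1, a homeobox gene that acts with LFY on CAL, was lower on day 1 (2.69 ± 0.451 CPM) and higher on day 5 (14.3 ± 3.48 CPM) than on day 0 (5.02 ± 0.433 CPM; -0.90 and 1.51; adjusted p = 0.00772 and 1.56e-06, edgeR), and its day 1 call was lost without replicate 2 (-0.79; 0.0694) or replicate 3 (-0.91; 0.0568) of every day. PUCHI, an AP2-type gene of floral meristem identity, had 0.132 ± 0.109 CPM on day 5 and 2.43 ± 0.493 CPM on day 1, against 4.75 ± 0.442 CPM on day 0. Its day 1 change (-0.97; adjusted p = 0.0281, edgeR) was lost in 6 of 24 fits that each left out 1 library.

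Of 7 repressors of AP1, CAL or FUL, 2 passed the test on day 1, with 4.21% of all tested genes higher and 5.85% lower. On that day AP2 was higher and TFL1 was lower than on day 0, and 5 did not pass (list median 0.29). On day 5, 3 were higher and 1 was lower (list median 0.31), with 24.3% of all tested genes higher and 22.9% lower. AP2, a floral identity gene that also lowers FUL and SOC1, averaged 67.0 ± 3.17 CPM on day 1 and 139 ± 16.2 CPM on day 5, against 34.7 ± 2.67 CPM on day 0 (0.95 and 2.01; adjusted p = 4.38e-07 and 1.42e-13, edgeR). TFL1, which keeps the shoot tip indeterminate and holds AP1 and LFY out of it, averaged 15.3 ± 0.922 CPM on day 1 and 11.9 ± 2.32 CPM on day 5, against 29.5 ± 2.64 CPM on day 0 (-0.95 and -1.30; adjusted p = 3.43e-05 and 1.44e-08, edgeR). TOE3, an AP2 relative, did not pass on day 1 (-0.54; adjusted p = 0.0777) or day 5 (-0.44; 0.0626). It was called lower on day 1 with DESeq2 (adjusted p = 0.0488), with the 2 days alone (0.0362) or without day 4 replicate 1 (0.0408), and on day 5 without day 0 replicate 2 (0.0472), day 0 replicate 3 (0.0371), day 3 replicate 2 (0.0415) or day 4 replicate 1 (0.0337), each of which makes the number of lower repressors 2. SMZ was higher on day 5 (1.55 ± 0.323 CPM, against 0.341 ± 0.0843 CPM on day 0; 2.17; adjusted p = 2.26e-05, edgeR).

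Of 14 genes known to be lowered by AP1, 8 were lower and none higher on day 1 against day 0 (list median -0.49), where 5.85% of all tested genes were lower. Without replicate 2, or without replicate 4, of every day, 5 of the 14 were lower. On each of days 2, 3 and 4 against day 0, 10 were lower, with 12.4%, 14.5% and 17.6% of all tested genes lower. On day 5, 8 were lower and 2 were higher, with 22.9% of all tested genes lower and 24.3% higher. The 2 higher genes were TEM1 (0.57; adjusted p = 0.0217, edgeR) and TEM2 (1.02; 0.0398). No gene of the list was called higher without any 1 of day 0 replicates 3 and 4 and day 5 replicates 1 and 3. The same held without replicate 1 or replicate 3 of every day, or with the 2 days alone. SVP and AGL24, MADS-box genes of the inflorescence phase, had 17.8 ± 1.79 and 26.9 ± 1.97 CPM on day 5, against 101 ± 7.51 and 94.4 ± 8.06 CPM on day 0 (-2.51 and -1.81; adjusted p = 9.16e-16 and 6.35e-15, edgeR). SOC1 had 140 ± 6.30 CPM on day 1 and 77.8 ± 8.86 CPM on day 5, against 185 ± 29.4 CPM on day 0. Its day 1 fall (-0.40; adjusted p = 0.0189, edgeR) did not pass with library totals (-0.34; 0.0645), without day 0 replicate 1 (-0.35; 0.0536) or day 0 replicate 4 (-0.32; 0.0668), or without replicate 2 (-0.44; 0.129) or replicate 4 (-0.34; 0.117) of every day. Its day 5 fall was -1.25 (4.39e-09).

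Of 9 floral genes downstream of AP1, 7 were higher and none lower on day 1 (list median 0.90), with 4.21% of all tested genes higher and 5.85% lower. On day 5, 8 were higher and 1 lower (list median 1.66), with 24.3% and 22.9% of all tested genes. The exception on day 5 was UFO, a cofactor of LFY (-0.70; adjusted p = 0.000246, edgeR). AP3, which specifies petals and stamens, averaged 68.4 ± 5.23 CPM on day 1 and 179 ± 6.09 CPM on day 5, against 8.74 ± 2.41 CPM on day 0 (2.97 and 4.36; adjusted p = 1.53e-12 and 9.16e-16, edgeR). AG, which specifies stamens and carpels, averaged 11.7 ± 2.79 CPM on day 1 and 33.4 ± 2.33 CPM on day 5, against 3.20 ± 0.872 CPM on day 0. SEP2 and SEP3, cofactors in all floral organs, were 0.90 higher each on day 1 and 2.601 and 2.99 higher on day 5 against day 0, all log2 and called (edgeR).

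Of the 11 genes whose proteins are known to bind AP1, 9 passed the test on day 1, with 4.21% of all tested genes higher and 5.85% lower. On that day 6 were higher (SEP1, SEP2, SEP3, SEP4, AP3 and PI) and 3 were lower (SVP, AGL24 and SOC1) than on day 0, while the co-repressors LUG (0.07; adjusted p = 0.535, edgeR) and SEU (0.14; 0.137) did not pass. On day 5, 5 were higher and 3 lower, with 24.3% and 22.9% of all tested genes, and SEP4 did not pass (0.17; adjusted p = 0.1997, edgeR). The 3 lower partners on day 5 were again SVP, AGL24 and SOC1. The list medians were 0.39 on day 1 and 0.17 on day 5.

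Of 8 genes that FUL is known to lower, IND and SAUR10 had no row among the genes analysed here and 6 were tested. AP2 was higher on day 1 (4.21% of all tested genes were), and AP2, SHP1 and SHP2 were higher on day 5 (24.3% were). SHP1 and SHP2, which pattern the fruit margin next to the FUL domain, had 2.13 ± 0.221 and 0.763 ± 0.145 CPM on day 5, against 0.927 ± 0.259 and 0.0958 ± 0.0411 CPM on day 0 (1.20 and 2.94; adjusted p = 0.000553 and 2.56e-05, edgeR). These are low levels, and the samples are inflorescences of up to 5 days after induction. The list medians were 0.37 on day 1 and 0.75 on day 5.

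**Figure D5:**
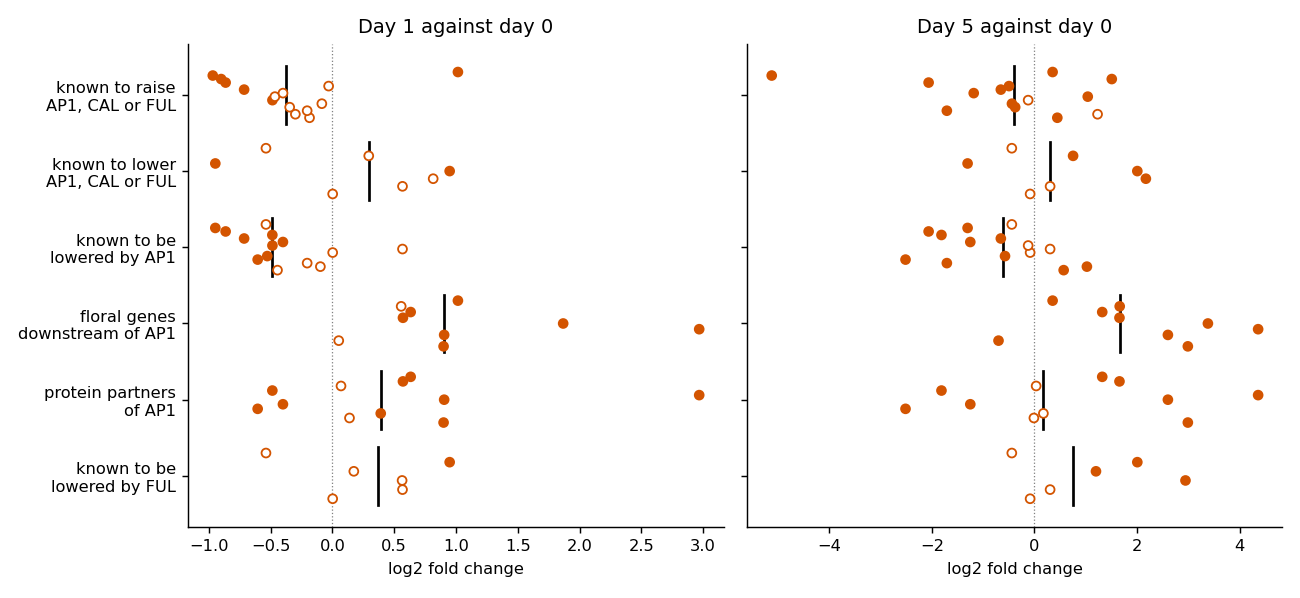
Log2 fold change (x axes) of each tested gene of the 6 lists on day 1 and on day 5 against day 0. Filled points have adjusted p under 0.05 (edgeR), open points do not, and black bars are list medians, which run from -0.49 to 0.90 on day 1 and from -0.61 to 1.66 on day 5.

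Summed levels of the meristem markers STM, CLV3 and WUS (3 of 3 in the table) were 54.8 to 79.7 CPM on day 5, against 156 to 172 CPM on day 0. STM makes up most of this sum. Mean levels of STM, WUS and CLV3 were 159, 5.62 and 1.24 CPM on day 0. On day 1 they were 155, 6.38 and 1.15 CPM, and on day 5 they were 69.3, 1.80 and 0.142 CPM. The sum was 145 to 172 CPM on day 1, when AP1 was already higher and CAL and FUL had not passed the test. Both leaf photosynthesis markers in the table summed to 3418 to 4890 CPM on day 5, against 6297 to 9033 CPM on day 0. Their sum was already below every day 0 sample on day 1, at 4523 to 6065 CPM, the day on which AP1 made its first step up. The anther and tapetum markers (5 of 5) summed to 0.783 to 15.5 CPM on day 5, against 0.154 to 0.590 CPM on day 0. Of 3 root markers only WOX5 was in the table. It stood at 2.31 to 4.34 CPM on day 5, against 0.0748 to 0.295 CPM on day 0. Neither of the mature pollen markers had a row among the genes analysed here. The part of these shifts in the changes of the 3 genes was not tested.

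The genes whose profiles were most like each member were found by Pearson's r of log2 CPM over the 24 samples, among 6759 genes with a symbol and a mean of at least 5 CPM. For AP1 they were AP3 (r = 0.94), MYB13 (0.94), AG (0.94), PMAT1 (0.94) and ENDO3 (0.93). For CAL they were SRS7 (0.96), RR10 (0.96), TCP1 (0.96), SCPL7 (0.95) and MAD1 (0.95), all with a lower mean on day 5 than on day 0, among them SRS7 at 21.1 CPM on day 5, against 62.2 CPM on day 0. For FUL they were NRPD4 (0.91), GL2 (0.90), ACL5 (0.90), ROPGEF1 (0.88) and TCP1 (0.88). These r describe samples that share the same 6 days, and the names depend on the measure: by Spearman's rank correlation 0 of the 5 stayed among the closest 5 for AP1, 1 for CAL and 2 for FUL. Without replicate 3 of every day, 0 of the 5 stayed for AP1 and 2 for CAL. Without replicate 1 of every day, 3 stayed for AP1, 2 for CAL and 2 for FUL. Without replicate 4 of every day, 1 stayed for FUL.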

How the data were processed

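PolyA RNA of inflorescences was sequenced, per the labels. Plants were kept at 21 °C in long days of 16 h light and 8 h darkness. The first drench was given 8 h after lights on and the daily ones 4 h after lights on. FastQC, Trim Galore, Salmon 0.12.0, DESeq2 and TAIR10 are named in the submitters' processing notes, without their roles or settings. The values the authors deposited are expected counts, estimated counts per gene in whole numbers, with 1 column for each run. Proteome data are not analysed here.

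Both runs of each sample were summed (48 runs, 24 samples). After filterByExpr (minimum count 10 and minimum total 15, days as groups), 1 quasi-likelihood model of edgeR 4.0.16 (R 4.3.3) with TMM scaling was fitted to the 6 days of all samples (residual degrees of freedom 18, prior 4.09), and 11 comparisons were drawn from it. Adjustment was by Benjamini and Hochberg over the 19747 genes tested. SE are log2 fold changes divided by the root of F, and intervals are 95%. Comparisons against day 0 share the day 0 samples. Within-sample ratios used counts plus 0.5 per kb of the longest-coding RefSeq model and exact permutation tests, adjusted over 27. Sequences and coordinates come from the RefSeq genome and annotation of TAIR10.1, the assembly whose gene identifiers matched 22915 of the 23069 genes.

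The members and gene lists were chosen with earlier results of these data known. Named were, beside the 3 members, up to 4 genes per list with the smallest adjusted p over the days, and the 5 genes most like each member. Genes of a list outside this rule (TEM1, TEM2, UFO, the other AP1 partners, genes without a row) were named after their values were seen. Alternatives were DESeq2 1.42.0, other size factors, library totals, no filter or a mean of at least 10 CPM, each batch alone, the compared days alone, the replicate number as a block, and each library and each replicate number left out. The scripts were tested on simulated data. Whether replicate numbers pair the samples was not tested, and the main model has no replicate block.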

Additional observations from a re-analysis of the deposited data

Results flagged for a closer look

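CAL in day 3 replicate 4 had 8.74 CPM, far from the other samples of that day at 12.2 to 12.8 CPM. Dixon's test for a far sample was applied to 18 groups of 4 samples, and chance alone flags about 5% of such groups. The same library had the lowest FUL level of its day (121 CPM) and 27.1 CPM of summed anther and tapetum markers, against 0.106 to 1.66 CPM in the other samples of day 3. With it, CAL was 0.67 lower on the log2 scale on day 3 than on day 0, and without it the change was -0.56 (adjusted p = 0.000205, edgeR).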

How the results depend on the processing

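Over 60 tested values (AP1, CAL and FUL in each comparison and their ratios), 1373 of 1434 alternative values were counted as unchanged. For single genes, and for ratios tested again by the exact test of unpaired samples, this means the same direction and side of the threshold. Ratios without a replicate number were not tested again. Paired differences of the ratios were tested by sign flips. With 4 pairs that test cannot reach 0.05, so it decides no call and was not used in this count. Ratios without a replicate number and paired differences were counted as unchanged if the direction held and the value stayed within the SD of the compared days. The mean paired differences equal the main values by construction, so all 27 of them were counted as unchanged. The following values changed, and the cause was not tested. FUL on day 5 against day 4 gave -0.23 (adjusted p = 0.0532) with DESeq2-type size factors, -0.22 (0.0586) at a mean of at least 10 CPM, -0.23 (0.0941) in batch 1 alone and -0.24 (0.104) with both days alone (edgeR). FUL on day 1 against day 0 turned to 0.042 with library totals and to 0.00067 in batch 1 alone. AP1 on day 5 against day 1 gave 0.15 with library totals. In batch 1 alone CAL gave -0.38 on day 2 against day 0 and -0.51 on day 5 against day 4.

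Batch 1 alone, with 4.50 to 10.8 M counts a sample, also took the adjusted p of the exact ratio tests to 0.0551, 0.0812 or 0.339 where it had been 0.0429, with directions kept. The value 0.0551 is the smallest possible p after adjustment when fewer of the 27 tests reach it. Ratios at 0.0551 therefore kept the smallest p, and lost the call because fewer other ratios reached it. Log2 AP1 over CAL in batch 1 alone was 0.46, 1.02, 1.44, 1.78 and 2.10 on days 1 to 5 against day 0, 0.56 on day 2 against 1, 0.42 on day 3 against 2 and 0.32 on day 5 against 4. FUL over AP1 was -0.44, -0.70, -0.85, -1.01 and -1.13 on days 1 to 5 against day 0. FUL over CAL was 0.60, 0.76 and 0.98 on days 3 to 5 against day 0, 0.31 on day 2 against 1 and 0.21 on day 5 against 4. In batch 2 alone AP1 over CAL gave 0.23 on day 3 against 2 and 0.46 on day 4 against 3 (adjusted p 0.140 and 0.0454, exact), and FUL over CAL 0.20 on day 2 against 1.

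Leaving out a library or a replicate number (28 fits) gave FUL -0.31 to -0.18 on day 4 against day 0, -0.30 to -0.19 on day 5 against 4, -0.058 to 0.015 on day 1 against 0, -0.087 to 0.0037 on day 2 against 1 and -0.099 to 0.021 on day 3 against 2. It gave AP1 0.18 to 0.30 on day 5 against day 1, and CAL -0.52 to -0.29 on day 4 against day 3.

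With the replicate block no call of the 3 genes changed (FUL on day 4 against day 0: -0.26, adjusted p = 0.00674, edgeR). Of 60 same-numbered pairs of samples, 17 had correlated deviations over 0.1. The median correlation was 0.046 for these pairs and -0.0086 for pairs of other numbers and days. In 9 of 24 samples the mean correlation with samples of other days was highest for their own number. The count of all called genes moved by over 1.5 times under 13 of 37 alternatives in each of the first 3 later steps (376 genes, 82 to 629 on day 2 against 1; 172 genes, 5 to 331 on day 3 against 2; 286 genes, 36 to 483 on day 4 against 3), under 7 on day 5 against 4 (2403 genes, 752 with both days alone to 2899) and under 6 on day 1 against 0 (1986 genes, 337 without replicate 2 to 2518). At a mean of at least 10 CPM, 13389 genes were tested instead of 19747, so these counts are of fewer genes. The count of called genes was then 3811 (5743) on day 3 and 6167 (9312) on day 5, both against day 0. It was 5116 (8032) on day 5 against 1 and 6384 (9661) over the days. Without replicate 2 it was 2636 (4672) on day 2 against 0 and 6336 over the days. SHP2 on day 1 against day 0, at levels under 1 CPM, ran from -0.086 (without replicate 3) to 1.10 (without replicate 2) and was -0.0097 without day 1 replicate 3. The list counts were read under these alternatives after the data were seen. CAL, with at most 569 counts a sample, is the member that depth limits most.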
